A study of Mus musculus with 12 samples.

Results

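The expression of 10 genes of histone H3K4 and H3K9 methylation was followed in 3T3-L1 cells, a mouse line of fat cell precursors, in which the arginine methyltransferase PRMT1 was depleted by siRNA. The 10 genes were Kmt2a, Kmt2b, Kmt2c, Kmt2d, Setd1a, Setd1b, Kdm6a, Ncoa6, Ehmt1 and Ehmt2, of 39423 genes in the count table. They were chosen by name, with their levels in the 4 conditions already known, so their values are given as a description. Where one is said to be called in the fit over all genes, that describes its size and spread and is not independent evidence. The conditions were control siRNA (siCtrl, labelled NC) and PRMT1 siRNA (siPRMT1), each at 24 h and at 72 h of MDI, the hormone mix that starts fat cell formation, with 3 libraries a condition. All 4 groups were of 1 cell line and all received MDI, and no untreated cells entered any comparison. Nothing in the labels said that replicates came from separate cultures, so p-values measure only the spread between these libraries, which may be technical. Total counts ran from 15116462 to 42357137 a library.

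Prmt1, the target of the siRNA, stood at 85.9 ± 4.71 FPKM (SD, n = 3) in siCtrl and 41.3 ± 2.61 FPKM in siPRMT1 at 24 h, and at 124 ± 15.1 and 67.4 ± 4.92 FPKM at 72 h. FPKM is the count per kilobase of gene, scaled to the library's total count, and it is the scale used here to compare levels between genes. The cells carried the markers of their label. The summed FPKM of 7 adipocyte markers was 147.5 to 152.8 in siCtrl and 111.2 to 125.7 in siPRMT1 at 24 h, and 2695 to 2910 against 2104 to 2288 at 72 h. The sum of 6 fibroblast markers was 1040 to 1179 against 988 to 1048 at 24 h, and 458.9 to 502.1 against 557 to 648.2 at 72 h. Sums over 4 leukocyte, 3 endothelial and 3 epithelial markers reached at most 2.4, 0.87 and 0.05 FPKM, and Ptprc, the defining leukocyte marker, had 0 counts in every library. The adipocyte marker sum thus moved with both the siRNA and the time, and its part in the results that follow was not tested. The sums rest most on genes of high FPKM, such as Lpl (83.9) and Col1a2 (627) in siCtrl at 24 h. At 24 h Thy1 and Pdgfrb had higher means in siPRMT1, while Pdgfra, Col1a1, Col1a2 and Dlk1 had lower ones. Fabp4 overlapped between the siRNAs at 72 h. In bulk RNA, fewer cells of a type and less RNA per cell cannot be told apart.

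Methylation of lysine 4 of histone H3 marks active promoters and enhancers, and methylation of lysine 9 marks silent chromatin. KMT2A and KMT2B act mainly at promoters together with menin, SETD1A and SETD1B place most of the trimethyl mark at active promoters, and KMT2C and KMT2D place the monomethyl mark at enhancers. KMT2C and KMT2D sit in a complex with KDM6A, a demethylase of lysine 27, and with the nuclear receptor coactivator NCOA6, and KMT2D is known as a factor that fat cell enhancers need. EHMT2 (G9a) and EHMT1 (GLP) pair to place mono- and dimethyl lysine 9, and G9a is known to restrain fat cell formation.

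Several of these enzymes, or subunits that travel with them, bind DNA that is rich in unmethylated CG pairs, so the CG content of the genes' own promoters is shown. RefSeq windows of the 250 bases before an annotated start (GRCm38.p6) were found for 8 of the 10 genes, with a second one for Ehmt2. Of the 9 windows, 8 held at least 15 CG pairs, as did 27.3% of 32851 windows of the same length, in which the median was 6. The windows are printed for the 3 genes that were called in a comparison, and for Ncoa6 as the one poor in CG. Each runs 5′ to 3′ on the strand of its gene, with every CG pair in capitals. The window of Kmt2d (chr15:98871206-98871455, minus strand) held 26 CG pairs, a number that 9.59% of windows reached. The window of Setd1a (chr7:127777139-127777388, plus strand) held 25, reached by 10.7%, and that of Kmt2a (chr9:44881290-44881539, minus strand) held 29, reached by 6.78%. The window of Ncoa6 (chr2:155440784-155441033, minus strand) held 1. The windows of Setd1a and Ncoa6 lie wholly inside the listed genes, downstream of their listed 5′ ends. The windows of Kmt2d and Ncoa6 lie inside the RefSeq spans of their genes, whose 5′ ends are at 98874077 and 155473911.
Kmt2d: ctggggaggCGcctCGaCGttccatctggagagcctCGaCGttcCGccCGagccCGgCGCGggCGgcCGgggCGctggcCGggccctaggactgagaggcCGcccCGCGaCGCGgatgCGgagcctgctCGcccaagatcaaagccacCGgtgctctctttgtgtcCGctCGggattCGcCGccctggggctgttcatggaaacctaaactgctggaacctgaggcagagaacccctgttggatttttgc
Setd1a: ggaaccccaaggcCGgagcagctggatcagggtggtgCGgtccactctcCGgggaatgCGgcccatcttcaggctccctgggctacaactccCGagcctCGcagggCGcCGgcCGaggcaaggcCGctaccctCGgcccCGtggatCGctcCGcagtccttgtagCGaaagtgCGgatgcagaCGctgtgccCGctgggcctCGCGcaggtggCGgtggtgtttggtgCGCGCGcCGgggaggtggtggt
Kmt2a: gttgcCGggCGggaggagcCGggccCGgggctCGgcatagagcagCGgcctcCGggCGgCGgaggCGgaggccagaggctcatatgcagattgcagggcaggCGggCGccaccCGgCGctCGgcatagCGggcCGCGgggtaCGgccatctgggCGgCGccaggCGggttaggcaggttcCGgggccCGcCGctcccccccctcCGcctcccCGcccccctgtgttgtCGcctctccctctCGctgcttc
Ncoa6: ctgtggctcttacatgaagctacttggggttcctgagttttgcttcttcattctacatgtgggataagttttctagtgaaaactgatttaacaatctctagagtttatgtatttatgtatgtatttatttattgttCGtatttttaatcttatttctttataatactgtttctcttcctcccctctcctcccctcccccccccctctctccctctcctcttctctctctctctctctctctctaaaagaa

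Levels spanned a narrow range. Over all 12 libraries the means ran from 19.6 FPKM for Ncoa6 and 18.0 for Ehmt1, through 14.4 for Kmt2d and 12.7 for Setd1a, to 10.4 for Kmt2a, 10.1 for both Kdm6a and Kmt2b, 8.45 for Kmt2c, 8.15 for Ehmt2 and 7.95 for Setd1b. No neighbours in this order were separated in every library. Within siCtrl at 24 h, the only neighbours whose libraries did not overlap were Ehmt1 and Kmt2a, so 8 of the genes formed a continuous range from 6.55 to 11.2 FPKM. Within siPRMT1 at 24 h, Kmt2d stood at rank 3 with 17.8 FPKM, all of its libraries above those of Kmt2a at 12.9 FPKM, and its libraries overlapped those of Ncoa6 at 18.4 FPKM. In siCtrl at 72 h, the top 5 were set apart from one another in every library, in the order Ncoa6, Ehmt1, Setd1a, Kmt2d, Kmt2b, while the 5 lowest overlapped their neighbours.

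**Figure D1:**
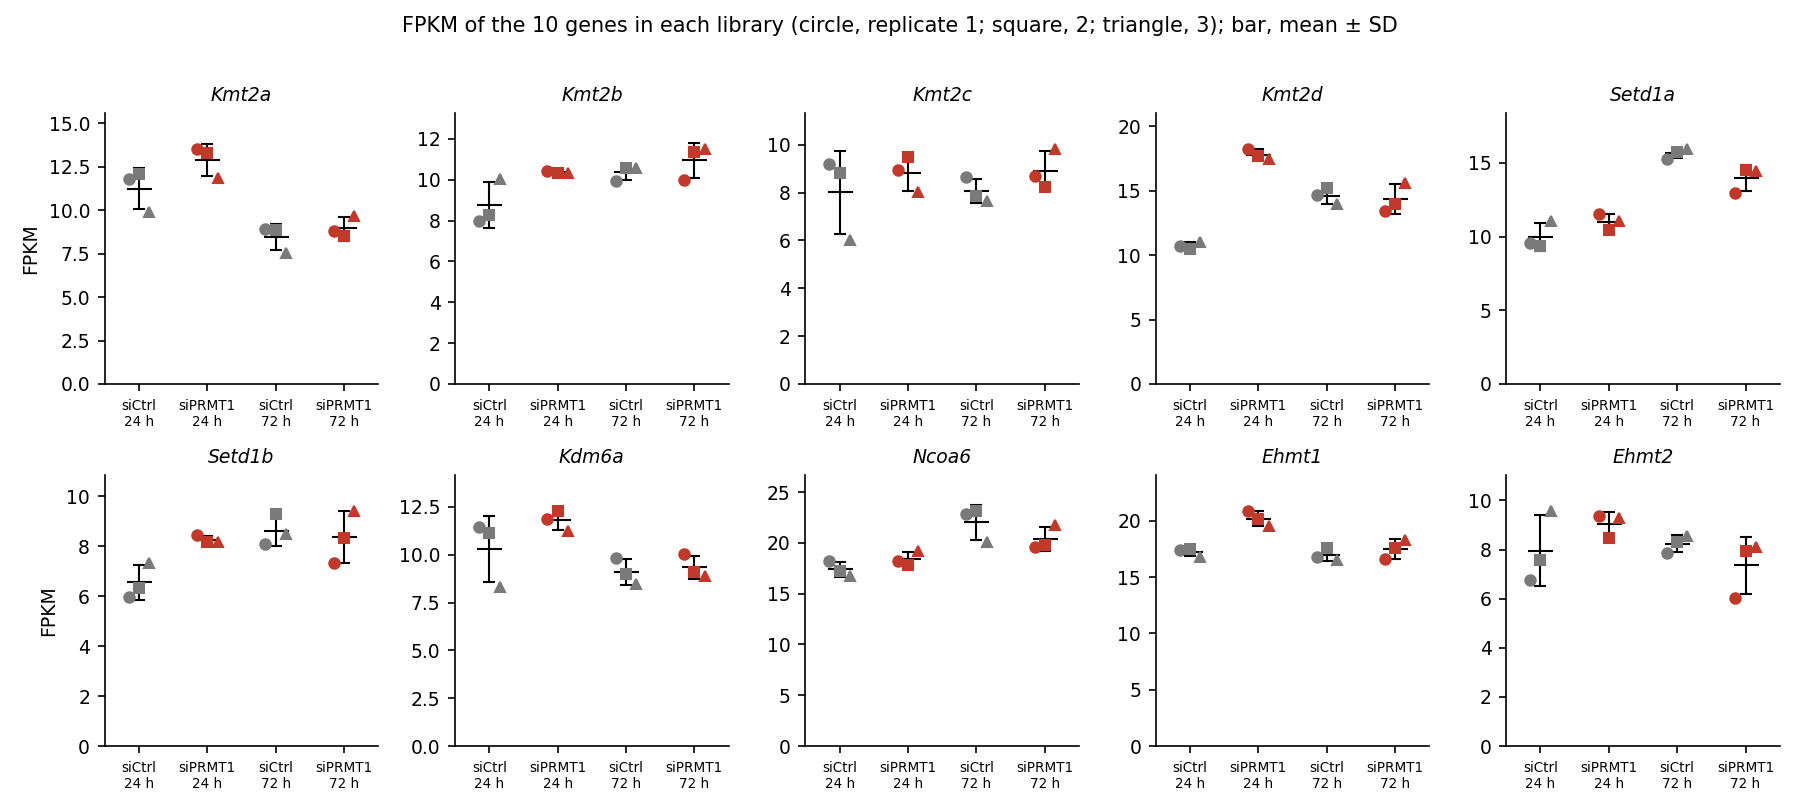
FPKM of each of the 10 genes (vertical axes, starting at 0) in the 12 libraries, by siRNA and time, grey for siCtrl and red for siPRMT1, with the mean and SD of 3 libraries as bars. Kmt2d is the gene whose siPRMT1 libraries at 24 h (17.5 to 18.3 FPKM) lie farthest above siCtrl (10.5 to 11.1 FPKM), and its groups overlap at 72 h.

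At 24 h Kmt2d was the gene of the set with a marked difference between siPRMT1 and siCtrl. Its FPKM was 10.7, 10.5 and 11.1 in the siCtrl libraries and 18.3, 17.7 and 17.5 in the siPRMT1 libraries. Every siPRMT1 library was above every siCtrl library, by more than the spread within either group. On the counts, scaled between libraries by TMM in edgeR, its level was 1.60-fold higher in siPRMT1 (log2 fold change 0.68, SE 0.0576). A gene was called where its adjusted p over all genes was under 0.05 and its log2 fold change beyond 0.5. By that rule 1 of the 10 genes, Kmt2d, was called higher, against 1.95% of the 13689 genes tested, and 0 were called lower, against 1.61%. DESeq2 gave the same counts, and at an unadjusted p under 0.05 edgeR had 3 of the 10 higher and 0 lower, where 24.65% of all genes tested were under 0.05 in either direction. Among the genes tested, 453 had a larger log2 fold change than Kmt2d.

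Kmt2d lies at chr15:98831669-98871243 on the minus strand, and its listed length of 20033 bases was exceeded by 44 of the genes tested. The GC content of its longest transcript was 58.4%, above which 8.04% of the genes tested stood. Genes of at least 10 kb and at least 55% GC, 57 in number, had a median log2 fold change of 0.10 at 24 h and a 95th percentile of 0.57. With the trend of each library with gene length removed, the log2 fold change of Kmt2d was 0.501, and its call was lost on the adjusted p and not on the fold. With the trends with length and GC both removed it was 0.44, under the fold threshold, while the adjusted p stayed under 0.05. The call held without each of the 6 libraries in turn (0.64 to 0.69) and under 7 other settings. Among these, summing the rows listed for Ehmt2 left the counts of Kmt2d itself unchanged. What length and GC contribute to the difference was not tested beyond these values.

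**Figure D2:**
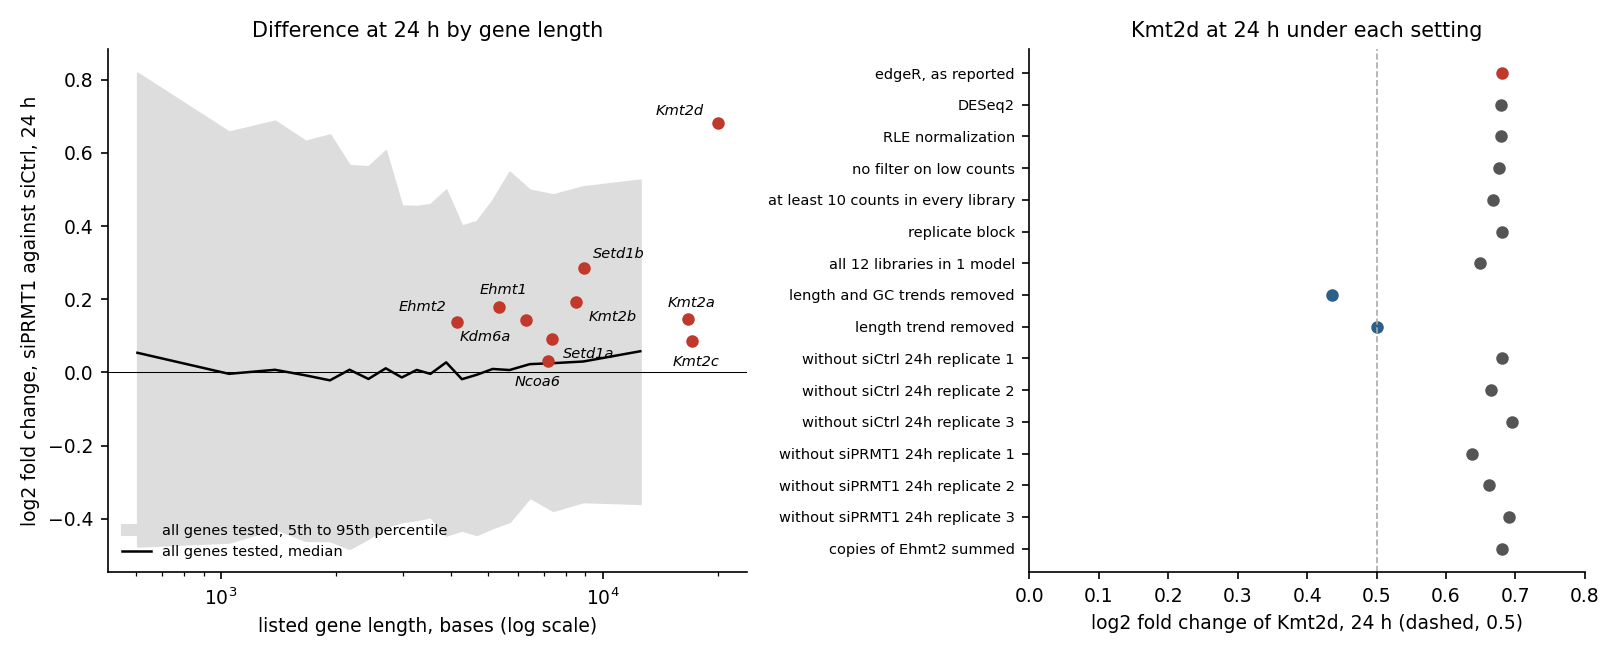
Left, log2 fold change at 24 h (siPRMT1 against siCtrl) of the 10 genes (red points) against listed gene length on a log axis, with the median (line) and the 5th to 95th percentile (grey) of all 13689 genes tested in 20 bins of equal size. Right, the log2 fold change of Kmt2d under each setting, with the fold threshold of 0.5 dashed and the adjusted p not drawn. The values with the length trend removed (0.50) and with length and GC trends both removed (0.44), in blue, are the lowest.

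The other genes of the Kmt2d and Kmt2c complex differed less at 24 h. Kmt2c, the other enhancer methyltransferase, was at 9.21, 8.80 and 6.02 FPKM in siCtrl and 8.95, 9.48 and 8.03 in siPRMT1. Its groups overlapped, siCtrl replicate 3 being the lowest of the 12 libraries, and its log2 fold change was 0.09 (SE 0.156). Kdm6a was at 11.4, 11.2 and 8.31 FPKM in siCtrl and 11.9, 12.3 and 11.3 in siPRMT1, where siCtrl replicate 3 was again the low library. Ncoa6 was at 16.8 to 18.2 FPKM in siCtrl and 17.9 to 19.2 in siPRMT1 (log2 fold change 0.03, SE 0.0676). Paxip1 and Pagr1a, which encode the remaining subunits particular to this complex and were picked for that role after their values were seen, had log2 fold changes of 0.16 (SE 0.0623) and 0.17 (SE 0.125), and neither passed the test (edgeR adjusted p = 0.163 and 0.440).

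Among the promoter methyltransferases, Setd1b was at 5.98, 6.34 and 7.34 FPKM in siCtrl at 24 h and 8.44, 8.15 and 8.17 in siPRMT1. Its groups did not overlap, and its log2 fold change was 0.29 (SE 0.0853), which was not called. Setd1b shares 360 bases of exon with the antisense gene AI480526, which held 2041 counts in all against 20334 for Setd1b, and the strand setting of the counting is not given in the sources used here. Kmt2b was at 8.0, 8.26 and 10.1 FPKM in siCtrl and 10.3 to 10.4 in siPRMT1, so its groups were set apart by a narrow gap (log2 fold change 0.19, SE 0.0908). Kmt2a was at 9.87 to 12.1 FPKM in siCtrl and 11.8 to 13.5 in siPRMT1 (0.15, SE 0.0985), and Setd1a at 9.33 to 11.1 and 10.4 to 11.5 (0.09, SE 0.0839), with overlap in both.

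Of the lysine 9 pair, Ehmt1 was at 17.4, 17.5 and 16.8 FPKM in siCtrl at 24 h and 20.9, 20.2 and 19.5 in siPRMT1. These groups did not overlap either, at a log2 fold change of 0.18 (SE 0.0669). Ehmt2 was at 6.74, 7.56 and 9.58 FPKM in siCtrl and 9.37, 8.48 and 9.27 in siPRMT1 (0.14, SE 0.124), and its groups overlapped through siCtrl replicate 3. The file lists Ehmt2 under its own name and under 3 suffixed copies on alternate scaffolds. The row used here held 73.2% to 76.9% of the counts on all 4, a share that differed little between conditions.

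All 10 log2 fold changes were above 0 at 24 h, with a median of 0.14, where 51.7% of all genes tested were above 0 and their median was 0.01. In 4 of the 10 genes (Kmt2b, Kmt2d, Setd1b and Ehmt1) the FPKM of the groups did not overlap, against 31.7% of all genes tested. On TMM-scaled CPM the groups of Kmt2b did overlap. Of the 10 genes, 1 had an adjusted p under 0.05 at any fold change, against 7.60%. With the length trend removed 8 of the 10 were above 0, with length and GC trends removed 7, and it was 8 without siCtrl replicate 3 and 9 without siPRMT1 replicate 3. Under the removal of both trends Kmt2a stood at 0.01 and Setd1b at 0.14. Nothing is read from these shares, since the genes were chosen with these levels known.

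At 72 h none of the 10 genes differed by as much as Kmt2d had at 24 h. Kmt2d was at 14.7, 15.2 and 14.0 FPKM in siCtrl and 13.5, 14.0 and 15.6 in siPRMT1, with the groups interleaved (log2 fold change -0.03, SE 0.0736, 95% interval -0.19 to 0.13). Setd1a was at 15.3, 15.8 and 16.0 FPKM in siCtrl and 13.0, 14.5 and 14.4 in siPRMT1, the 1 gene of the set whose groups did not overlap (-0.17, SE 0.0698), against 34.2% of the 14039 genes tested. Ehmt2 was at 7.86 to 8.54 FPKM in siCtrl and 6.02 to 8.09 in siPRMT1 (-0.17, SE 0.103), and its value ran from -0.25 to -0.05 without each library in turn, the latter without siPRMT1 replicate 1. The other log2 fold changes lay between -0.12 for Ncoa6 and 0.14 for Kmt2c, and 5 of the 10 were above 0 (3 with the length trend removed, 7 without siCtrl replicate 2). In the edgeR fit 0 of the 10 genes were called higher, against 2.84%, and 0 lower, against 3.80%, and 0 had an adjusted p under 0.05, against 16.5%. At an unadjusted p under 0.05 there was 1 of the 10, against 31.3% of all genes tested, and DESeq2 called 0.

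**Figure D3:**
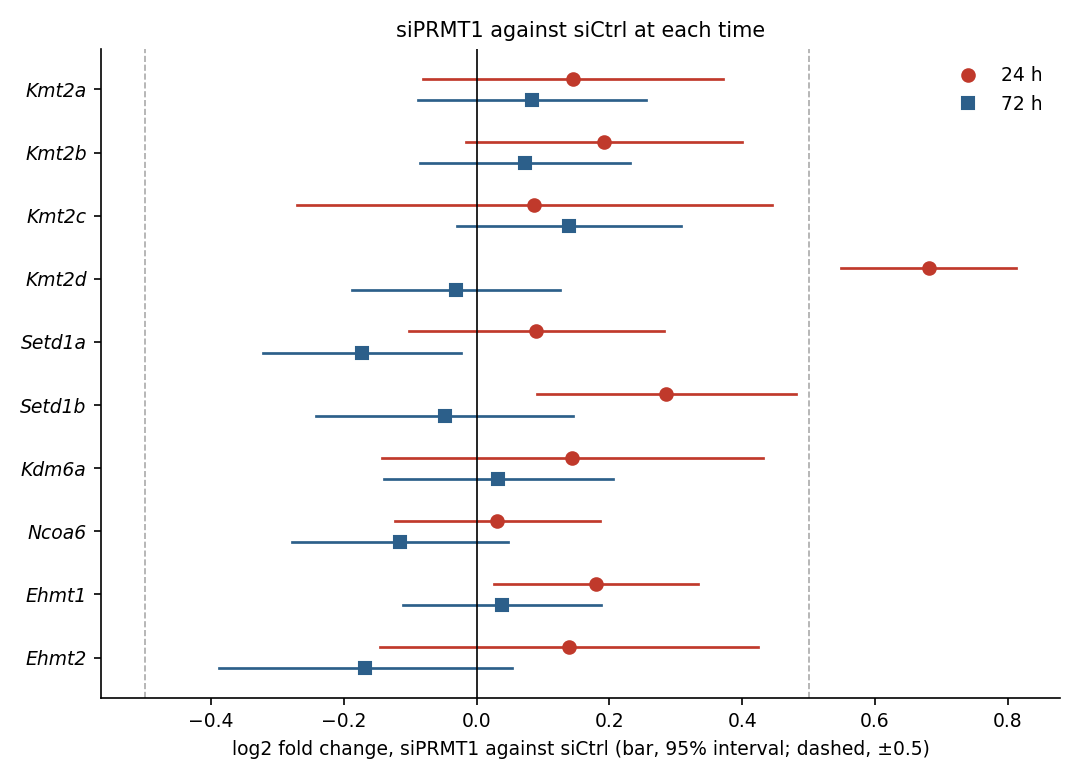
Log2 fold change of siPRMT1 against siCtrl (horizontal axis) for the 10 genes at 24 h (red circles) and 72 h (blue squares), with 95% intervals from the edgeR fits and dashed lines at 0.5 either way. At 24 h all points lie above 0, Kmt2d at 0.68, while at 72 h they lie between -0.17 and 0.14.

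The difference between the knockdown effects at the 2 times was then fitted over all 12 libraries. For Kmt2d it was -0.69 on the log2 scale (SE 0.0951), which was called, 1 lower of the 10 genes against 3.47% of 14612 tested. No gene of the set was called higher, against 4.77%. The value was -0.75 to -0.65 without each library in turn and -0.44 with length and GC trends removed, where the fold threshold was no longer met. The estimates for the other 9 genes ran from -0.31 for Setd1b (SE 0.141) to 0.07 for Kmt2c (SE 0.177), and none was called. This comparison shares its libraries with those at each time.

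The course from 24 h to 72 h set the genes on different paths. In siCtrl, Setd1a went from 9.56, 9.33 and 11.1 FPKM to 15.3, 15.8 and 16.0, a log2 fold change of 0.58 (SE 0.0941), and was called higher. Kmt2d went from 10.5 to 11.1 FPKM up to 14.0 to 15.2 (0.38, SE 0.0745), Setd1b from 5.98 to 7.34 up to 8.08 to 9.29 (0.33, SE 0.107) and Ncoa6 from 16.8 to 18.2 up to 20.1 to 23.2 (0.27, SE 0.0863). Kmt2a went the other way, from 11.8, 12.1 and 9.87 FPKM to 8.92, 8.88 and 7.56 (-0.48, SE 0.102). In these 5 genes the FPKM of the times did not overlap, against 64.3% of all 13829 genes tested. On TMM-scaled CPM Setd1b did overlap, at 56.17 to 71.13 at 24 h and 69.97 to 81.73 at 72 h. Each of the 5 genes had an adjusted p under 0.05, against 58.9%. Only Setd1a passed the fold threshold as well, 1 higher against 22.7% and 0 lower against 20.4%. The call of Setd1a was lost with length and GC trends removed (0.43), and Kmt2a was called at -0.58 to -0.56 without siCtrl replicate 3 at 24 h or replicate 1 or 2 at 72 h, and at -0.54 with both trends removed. That removal also lowered Setd1b to 0.17, and Ncoa6 was at 0.17 without siCtrl replicate 2 at 72 h.

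In siPRMT1 the course of Kmt2d was turned round: from 18.3, 17.7 and 17.5 FPKM at 24 h to 13.5, 14.0 and 15.6 at 72 h (log2 fold change -0.32, SE 0.0629). All of its libraries at 72 h lay below those at 24 h, whereas in siCtrl they lay above. With length and GC trends removed the course in siCtrl was 0.09, and in siPRMT1 it lay between -0.34 and -0.26 under the alternative settings and between -0.39 and -0.28 without each library in turn. Kmt2a went from 13.5, 13.3 and 11.8 FPKM to 8.81, 8.50 and 9.65 (-0.53, SE 0.0709) and was called lower, and the call was lost on the fold threshold without siPRMT1 replicate 1 at 24 h (-0.50), without replicate 2 at 72 h (-0.49) and with the length trend removed (-0.45). Setd1a went from 10.4 to 11.5 FPKM up to 13.0 to 14.5 (0.33, SE 0.0641). Kdm6a (-0.35, SE 0.0700), Ehmt2 (-0.31, SE 0.0979) and Ehmt1 (-0.22, SE 0.0609) were lower at 72 h, Ehmt2 at -0.19 without siPRMT1 replicate 1 at 72 h. These 6 genes had an adjusted p under 0.05, against 63.4% of 14224 tested, and with Ncoa6 they made 7 whose libraries did not overlap, against 66.2%. The calls were 0 higher, against 19.0%, and 1 lower, against 17.4%.

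The courses of Kmt2a were close to one another, -0.48 in siCtrl and -0.53 in siPRMT1, with a difference between them of -0.04 (SE 0.129, 95% interval -0.32 to 0.23). Kmt2c was at -0.06 (SE 0.141) in siCtrl, or -0.24 without siCtrl replicate 3 at 24 h, and at 0.00 (SE 0.0801) in siPRMT1. Ehmt2 was at -0.02 (SE 0.135) in siCtrl, and at -0.26 with length and GC trends removed. Kmt2b was at 0.17 (SE 0.106) and 0.07 (SE 0.0636).

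**Figure D4:**
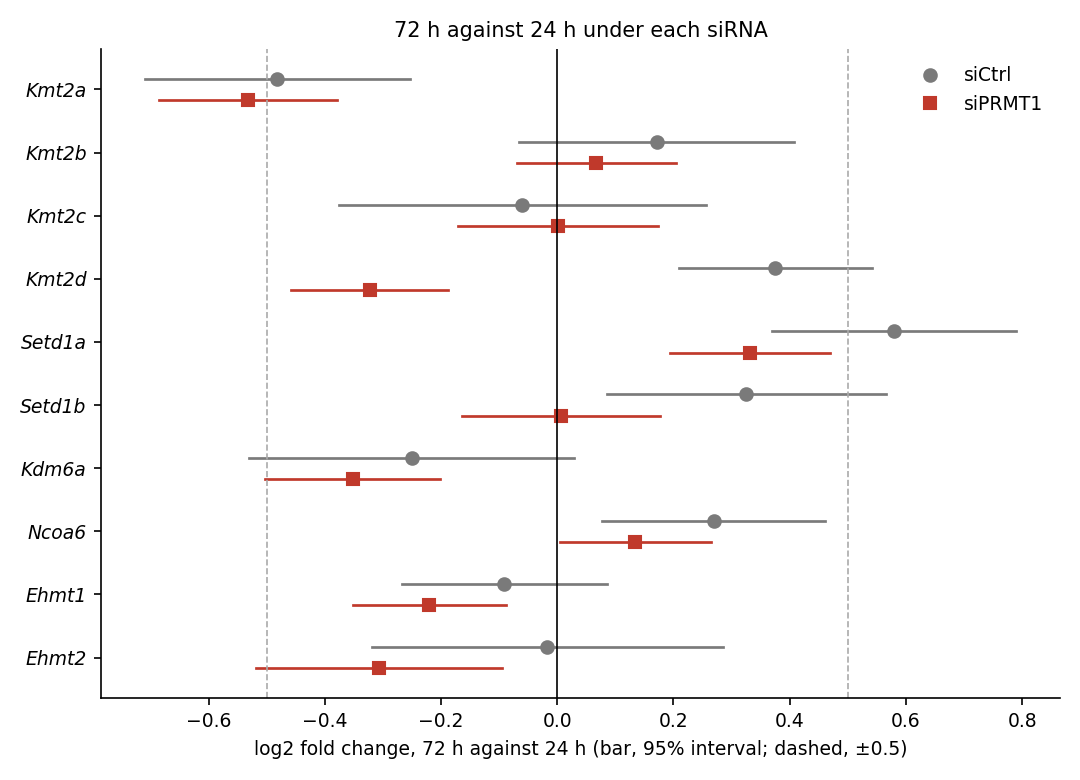
Log2 fold change of 72 h against 24 h (horizontal axis) for the 10 genes in siCtrl (grey circles) and siPRMT1 (red squares), with 95% intervals and dashed lines at 0.5 either way. Kmt2d lies at 0.38 in siCtrl and -0.32 in siPRMT1, and Kmt2a is low under both siRNAs, at -0.48 and -0.53.

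As profiles over the 12 libraries, each centred on its own mean of log2 CPM, Kmt2b and Setd1b were the most alike of the 45 pairs (root mean square difference 0.0767), and Kmt2a and Setd1a the least (0.514). Kmt2d was nearest to Setd1b (0.170) and, of its own complex, stood 0.253 from Ncoa6, 0.269 from Kmt2c and 0.287 from Kdm6a. The mean profile of the 10 genes was closest, among 9325 genes of at least 10 CPM, to those of Zbtb21 (0.0445), Socs7 (0.0447), Zc3h18 (0.0464), Fam120a (0.0480) and Chd3 (0.0484), over the same 12 libraries. Of the members, Ehmt1 lay nearest to that mean (0.0747) and Kmt2a farthest (0.262).

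The remaining enzymes, subunits and readers of these marks were counted in 9 lists of 49 genes. These lists were chosen with earlier results of these data known, so their calls and p-values are a description and not independent evidence. At 24 h, 47 of the 49 were tested and 0 were called in siPRMT1 against siCtrl by edgeR, against 1.95% of all genes called higher and 1.61% lower, and DESeq2 called 0. At an unadjusted p under 0.05 there were 9, against 24.65% of all genes, and at an adjusted p under 0.05 there was 1, against 7.60%. That gene was Kdm6b, which encodes a lysine 27 demethylase related to KDM6A. The siCtrl libraries held 6.23, 6.03 and 6.87 FPKM and the siPRMT1 libraries 8.34, 8.59 and 9.03, all siPRMT1 libraries being above (log2 fold change 0.39, SE 0.0738, edgeR adjusted p = 0.0205). Its adjusted p was 0.122 with the length trend removed and 0.0628 to 0.108 without any 1 library other than siCtrl replicate 3. Next by p came Suv39h1 (-0.31, SE 0.0792, edgeR adjusted p = 0.0525) and Suv39h2 (0.49, SE 0.136, edgeR adjusted p = 0.0662), which encode lysine 9 trimethylases and did not pass. Suv39h2 shares 1017 bases of exon with the antisense gene Dclre1c, which held 3007 counts in all against 2772 for Suv39h2. By list, the median log2 fold change was 0.06 for the 4 core subunits shared by the H3K4 complexes, 0.13 for 8 complex-specific subunits, 0.06 for 4 other H3K4 enzymes, -0.04 for 5 H3K4 demethylases and -0.08 for the 5 tested of 7 other H3K9 methyltransferases. It was 0.11 for 3 partners of the EHMT pair, 0.03 for 10 H3K9 demethylases, -0.02 for 3 H3K9 readers and 0.10 for 5 H3K27 enzymes and subunits, beside 0.01 for all genes.

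At 72 h, 46 of the 49 were tested. At an unadjusted p under 0.05 there were 13, against 31.3% of all genes, and at an adjusted p under 0.05 there were 4, against 16.5%. With the fold threshold 1 was called, against 2.84% of all genes higher and 3.80% lower. This was Prdm9, which encodes a lysine 4 methyltransferase known from meiosis. It was at 0.92, 1.12 and 0.98 FPKM in siCtrl and 0.64, 0.62 and 0.65 in siPRMT1, on 86 to 147 counts a library (log2 fold change -0.66, SE 0.132, edgeR adjusted p = 0.00319), a low level at which the groups did not overlap. Kdm4b, a lysine 9 demethylase gene, fell by 0.47 on the log2 scale (SE 0.0817, edgeR adjusted p = 0.00104), and Setd7, a lysine 4 monomethylase gene, rose by 0.39 (SE 0.0668, edgeR adjusted p = 0.00106), both under the fold threshold, which Kdm4b passed without siCtrl replicate 1 or siPRMT1 replicate 3 (-0.55 and -0.53) and with the length trend removed (-0.51). Over both times, Kdm6b (-0.72, SE 0.122, edgeR adjusted p = 0.00179) and Kdm4b (-0.68, SE 0.156, edgeR adjusted p = 0.0110) had knockdown effects that differed between 24 h and 72 h, as Kmt2d did in the same fit. These were the 2 of 47 partner genes called lower in that fit, against 3.47% of all genes, and 0 were called higher, against 4.77%. Kdm6b was at 9.63, 11.0 and 10.5 FPKM in siCtrl at 72 h and 7.29, 8.27 and 8.88 in siPRMT1, so the order of the groups at 24 h was reversed. Its log2 fold change at 72 h was -0.35, which was not called. Ezh1 differed by 0.45 (SE 0.120, edgeR adjusted p = 0.0250) without reaching the fold threshold.

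Between the times in siCtrl, 3 of 46 partner genes were called higher, against 22.7% of all genes, and 7 lower, against 20.4%. In siPRMT1 0 of 47 were called higher, against 19.0%, and 7 lower, against 17.4%. At an unadjusted p under 0.05 edgeR had 4 of the 47 higher and 24 lower, where 66.63% of all genes tested were under 0.05 in either direction. All 5 tested genes of the list of other H3K9 methyltransferases, which leaves out Ehmt1 (-0.09) and Ehmt2 (-0.02), were lower at 72 h in siCtrl at an adjusted p under 0.05, against 58.9% of all genes in either direction. Of the 5, 3 were called, and their median log2 fold change was -0.62 where that of all genes was 0.00. Mecom showed the largest value, from 7.93, 7.93 and 6.48 FPKM to 2.71, 2.60 and 2.61 (-1.57, SE 0.105, edgeR adjusted p = 1.0e-06), and Setdb1 (-0.62, SE 0.0805) and Suv39h2 (-0.69, SE 0.173) were the other called genes. Suv39h2 shares exon bases with the antisense gene Dclre1c, which held more counts in all than Suv39h2. Of the H3K27 list, Ezh2, the main lysine 27 methyltransferase gene of dividing cells, fell by 0.78 on the log2 scale (SE 0.0952, edgeR adjusted p = 6.7e-05), and Kdm6b rose by 0.63 (SE 0.0962, edgeR adjusted p = 2.95e-04). Ash2l of the shared core fell by 0.61 (SE 0.0803), Cbx3 of the readers fell by 0.68 (SE 0.103) and Smyd3 fell by 0.70 (SE 0.122), while Men1, which encodes menin, rose by 0.53 (SE 0.154) and Prdm9 rose by 0.78 (SE 0.195), all called. The call of Men1 was lost without siCtrl replicate 1 (0.38) or 2 (0.49) at 24 h, without replicate 1 (0.46) or 2 (0.49) at 72 h and with length or both trends removed (0.40 and 0.21), and that of Prdm9 without siCtrl replicate 2 at 72 h (edgeR adjusted p = 0.0543). Kdm1a (-0.46, SE 0.0915) and Phf2 (0.48, SE 0.101) had the largest changes of the H3K4 and H3K9 demethylase lists, under the fold threshold. Kdm1a was called without siCtrl replicate 1 at 24 h (-0.51) or replicate 3 at 72 h (-0.55) and with length or both trends removed (-0.57 and -0.66), and Phf2 without siCtrl replicate 3 at 24 h (0.57) and with the length trend removed (0.51). Zfp644 had the largest change of the EHMT partners (-0.34, SE 0.207), which did not pass (edgeR adjusted p = 0.180) but was called at -0.59 without siCtrl replicate 3 at 24 h.

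**Figure D5:**
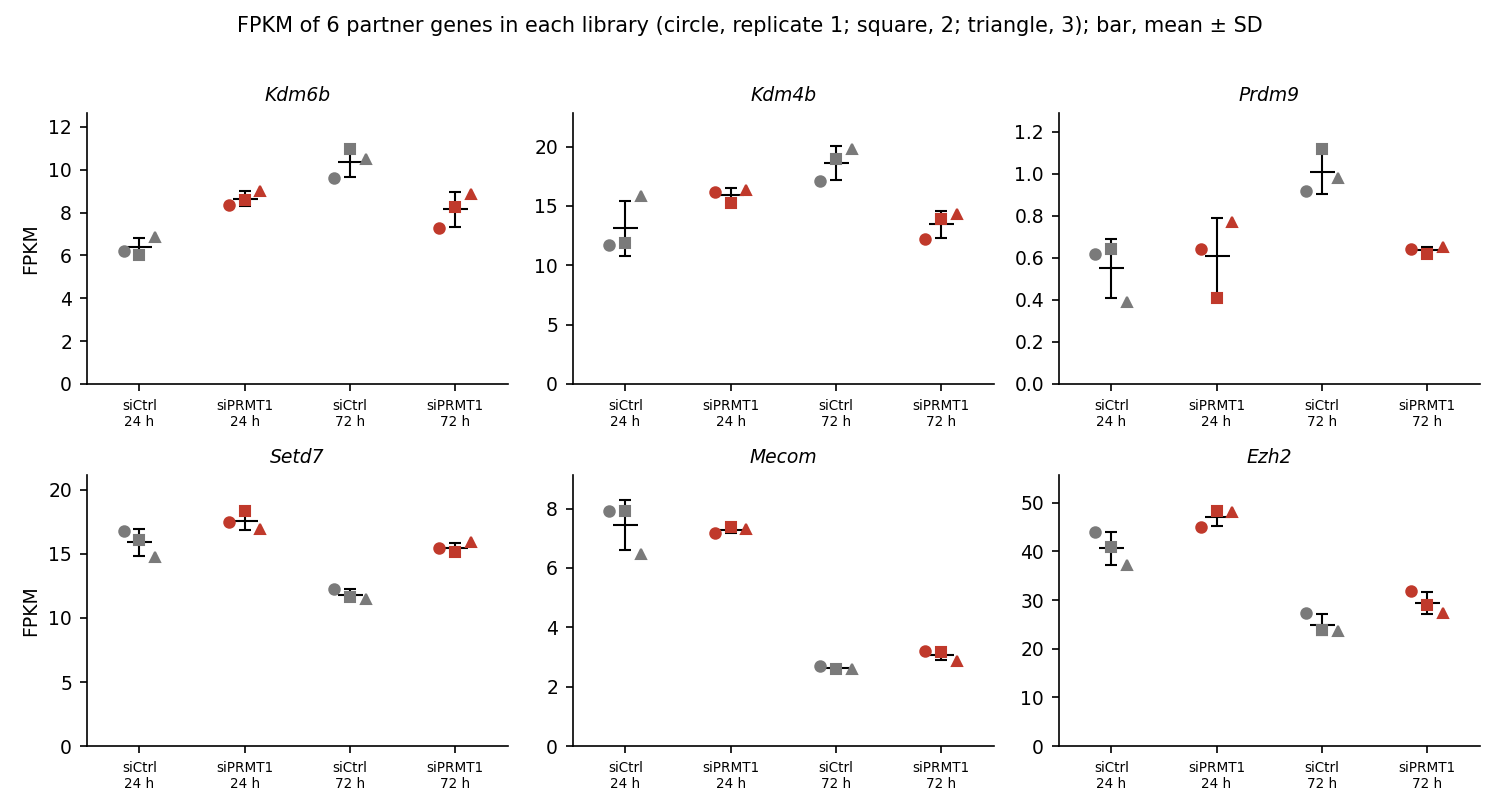
FPKM of 6 partner genes (vertical axes, starting at 0) in the 12 libraries, drawn as for the 10 genes, with the mean and SD of 3 libraries. Kdm6b is higher in siPRMT1 at 24 h and lower at 72 h, Prdm9 (0.92 to 1.12 FPKM in siCtrl at 72 h) is low throughout, and Mecom and Ezh2 are lower at 72 h under both siRNAs.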

How the data were processed

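RNA of 3T3-L1 cells was sequenced in 12 libraries, 3 for each of 4 conditions. Per the labels, cutadapt 1.11, HISAT2 2.1.0 and RSEM 1.2.6 were used by the authors on mm10; the counting tool, its strand setting and its handling of multi-mapped reads are not given in the sources used here. The deposited counts are whole numbers per gene without normalization, and the deposited FPKM values were recomputed from counts, listed length and library totals within 0.005. No pair of libraries was identical. The members and the partner and marker lists were chosen with earlier results of these data known.

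Counts were tested with edgeR 4.0.16 in R 4.3.3 (TMM, filterByExpr, quasi-likelihood F test, Benjamini-Hochberg over all genes tested), each comparison on its own 6 libraries and the interaction of siRNA and time on all 12, and the script was tested on simulated data. The SE is the log2 fold change divided by the root of F, with a 95% interval. DESeq2 1.42.0, RLE scaling, other filters, a replicate block, all libraries in 1 model, no fold threshold, removal of the length trend alone or of length and GC trends together (GC from the longest transcript, known for 88.9% to 90.3% of genes tested) and leaving out each library were alternatives. All 10 members passed the filter on low counts in every comparison. Genes named were the members, Prmt1, the partner genes called in a comparison of siRNAs or the interaction or else the 3 with the smallest p, the partner of each list with the largest change between times in siCtrl, and the 5 genes closest in profile. Other partner genes called between the times were named after their values were seen. Promoter sequences are RefSeq's (GRCm38.p6). Levels as low as 3 counts a library correspond to 0.0708 to 0.199 CPM.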

Additional observations from a re-analysis of the deposited data

Results flagged for a closer look

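In 3 genes the knockdown effect at 72 h differed from that at 24 h in a fit over all 12 libraries, by edgeR's adjusted p under 0.05 and a log2 value beyond 0.5. They were 1 of the 10 members and 2 of the 47 partner genes tested, all called lower, against 3.47% of 14612 genes tested. Of members and partner genes 0 were called higher, against 4.77%. For Kmt2d the difference between the effects was -0.69, from 0.68 at 24 h to -0.03 at 72 h, given as a description because the gene was chosen with these levels known. For Kdm6b it was -0.72, from 0.39 to -0.35, with the siPRMT1 libraries above siCtrl at 24 h and below them at 72 h. For Kdm4b it was -0.68, from 0.23 to -0.47. The partner lists were also chosen with earlier results of these data known, so the calls of Kdm6b and Kdm4b are likewise a description. The values of Kdm6b and Kdm4b stayed called under all 9 alternative settings and without each of the 12 libraries. Of these settings, the one without the fold threshold could not remove a call. The one that summed the copies of Ehmt2 left the counts of these 3 genes unchanged. The value of Kmt2d, for which the setting without the fold threshold was not counted, stayed called under 7 of 8 settings and without each library. The exception was -0.44 with length and GC trends removed. No group had enough libraries for a search for single outlying samples. At 24 h siCtrl replicate 3 stood apart from replicates 1 and 2 in some genes, in either direction. Kdm7a was at 4.98 FPKM against 11.94 and 11.04, Jmjd1c at 3.94 against 7.76 and 7.54, and Kdm4b at 15.81 against 11.68 and 11.85. Whether that library differed as a whole was not tested.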

How the results depend on the processing

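Kmt2d at 24 h, called at 0.68, was at 0.50 with the length trend removed and 0.44 with length and GC trends removed, and 0.64 to 0.69 without each library. Of the members called, the count at 24 h became 0 with either trend removal. In the siCtrl course the count called higher became 4 without the fold threshold and 0 with length and GC trends removed, and the count called lower became 1 under both of these. In the siPRMT1 course 1 was called higher and 5 lower without the fold threshold, and 0 lower with the length trend removed. In the interaction 0 were called lower with length and GC trends removed. Leaving out each library gave 0 to 1 member called lower in either course (1 in siCtrl without replicate 3 at 24 h or replicate 1 or 2 at 72 h, 0 in siPRMT1 without replicate 1 at 24 h or 2 at 72 h). Of the partner genes, without the fold threshold 1 was called higher at 24 h, 1 higher and 3 lower at 72 h, 9 higher and 15 lower in the siCtrl course, 3 higher and 22 lower in the siPRMT1 course and 2 higher in the interaction. Of all genes, 7.60% were called in either direction without that threshold at 24 h, 16.5% at 72 h, 58.9% in the siCtrl course and 63.4% in the siPRMT1 course. Shares of all genes in the interaction without that threshold, and under the other settings, are not given here. Nothing is therefore read from these counts of members and partner genes. With length and GC trends removed 1 was called higher at 24 h, 1 higher in the siCtrl course, 1 higher in the siPRMT1 course and 5 lower in the interaction. With the length trend removed 2 were called lower at 72 h and 1 higher in the siPRMT1 course, as was 1 with all 12 libraries in 1 model. Leaving out each library gave 1 to 2 called lower at 72 h (2 without siCtrl replicate 1 or siPRMT1 replicate 3), 1 to 5 higher and 9 to 11 lower in the siCtrl course (5 and 11 without replicate 3 at 24 h, 1 without replicate 2 at 72 h), 0 to 1 higher in the siPRMT1 course (1 without replicate 2 at 24 h or 3 at 72 h) and 2 to 4 lower in the interaction (4 without siCtrl replicate 3 at 24 h). Zfp644 turned from -0.34 to 0.061 in the siCtrl course with length and GC trends removed. The cause of these shifts was not tested, beyond what the setting itself removes. The replicate block changed no member's call (Kmt2d 0.68 at 24 h). Same-numbered deviations correlated at -0.16 to 0.27 and not above 0.1 in every pair. With 3 libraries a group this cannot decide whether the numbers pair the libraries. Counts summed over the copies of Ehmt2, a setting chosen after seeing the data, moved no count of calls. Members kept their order of levels on TMM-scaled CPM per kilobase, and all 5 nearest profiles were kept at a minimum of 1 CPM.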
